A study of Mus musculus with 5 samples.

Results

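Chemokine receptors and sphingosine 1-phosphate (S1P) receptors are G protein-coupled receptors on the cell surface that steer migrating blood cells. The 9 genes described here, Cxcr4, Cxcr2, Cxcr5, Ccr1, Ccr7, Ackr3, S1pr1, S1pr2 and S1pr4, were taken by name from a deposited table of 39056 genes and looked up in all 5 libraries. Each library held RNA from about 12000 Lin-Sca-1+Kit+ (LSK) cells, the marrow fraction that contains blood stem cells and multipotent progenitors, sorted from C57BL/6 mice at postnatal day 15. The groups were 3 libraries from mice null for Gabbr1, a subunit of the GABA-B receptor, and 2 libraries from wild-type (WT) mice. The sources used here do not give the deleted part of Gabbr1, the sex of the mice or whether a library is 1 animal, so the p-values describe differences among libraries that may be technical. The labels differ on the number of samples, with an n of 4 per genotype in the extraction protocol and of 3 null and 2 WT in the series design, which the libraries match. Gabbr1 itself had 289, 264 and 268 counts in null and 402 and 403 counts in WT, so transcripts of the locus were lower but still read in null (log2 fold change -0.59 ± 0.13 SE, adjusted p with edgeR = 0.0361); counts outside the deleted part check nothing. The gate markers Kit (log2 fold change -0.16 ± 0.12 SE, adjusted p with edgeR = 0.643) and Ly6a, the gene of Sca-1 (-0.36 ± 0.26 SE, adjusted p with edgeR = 0.644), were read in every library.

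Blood stem cells are held in the marrow by the chemokine Cxcl12, which stromal and endothelial cells make and which Cxcr4 on the stem cell senses. Ackr3 binds Cxcl12 too and removes it, without signalling through G proteins in the usual way. S1P is kept high in blood and low in tissue, and S1pr1, which couples to inhibitory G proteins, draws cells along that gradient out of marrow and lymphoid organs. S1pr2 couples to other G proteins and opposes migration, and S1pr4 is found mainly on blood cells. Cxcr2 and Ccr1 serve neutrophils and other myeloid cells, while Cxcr5 and Ccr7 guide lymphocytes into follicles and T cell zones. The GABA-B receptor also couples to inhibitory G proteins.

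The sequence upstream of the start is shown for the 2 most abundant receptors, because their levels carry most of the receptor transcripts described below. Both are the 250 bases before the RefSeq start (GRCm38.p6), on the strand of the gene, which is the minus strand for both. Capitals mark matches, on either strand, to CACCC, the letters that Krüppel-like factors read, and to GCGCATG, the core of the site of the factor NRF1.
Cxcr4 (chr1:128592300-128592549): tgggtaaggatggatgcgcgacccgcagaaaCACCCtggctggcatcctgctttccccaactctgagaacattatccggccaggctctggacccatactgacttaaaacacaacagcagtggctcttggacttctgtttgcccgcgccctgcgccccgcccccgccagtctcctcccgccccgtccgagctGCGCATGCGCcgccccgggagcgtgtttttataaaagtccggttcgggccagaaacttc
S1pr4 (chr10:81500138-81500387): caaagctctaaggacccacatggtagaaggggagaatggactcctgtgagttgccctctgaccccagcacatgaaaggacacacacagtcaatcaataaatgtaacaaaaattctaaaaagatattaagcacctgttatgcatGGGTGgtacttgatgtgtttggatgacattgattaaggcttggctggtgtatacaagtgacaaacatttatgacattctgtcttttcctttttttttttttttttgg

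The windows differed in base composition, with 61.2% G or C upstream of Cxcr4 and 38.8% upstream of S1pr4. The NRF1 letters matched both strands at overlapping positions, from 59 to 50 bases before the Cxcr4 start, and human CXCR4 is known to carry an NRF1 site near its start. Among 6 receptors with an entry, the window of Cxcr4 alone held these letters, which 3.24% of 32851 promoter windows of that length held. CACCC was in 4 of the 6 windows and in 52% of all windows. TGANTCA (AP-1) was in 0 of 6 and 6.75% of all, GAGGAA (PU.1) in 2 of 6 and 23.3%, and TGTGGT (Runx) in 2 of 6 and 14%. GCGCATG and the windows shown were chosen after the sequences and values were seen, and a match of letters is a description, not a bound site.

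Cxcr4 was by far the most abundant of the receptors. Levels of different genes are compared per kilobase of exon, as CPM (the count as a share of the library's total, scaled for composition by TMM) divided by exonic length. Cxcr4 stood at 104.8 ± 5.85 CPM per kb in null (SD, n = 3) and 76.0 ± 17.6 CPM per kb in WT (SD, n = 2). S1pr4 followed at 18.2 ± 1.90 in null and 15.7 ± 1.46 in WT, then S1pr1 at 10.4 ± 1.05 in null and 7.02 ± 0.784 in WT, and Ccr7 at 3.58 ± 0.304 in null and 2.33 ± 0.571 in WT, all in CPM per kb. The ranges of these 4 genes did not overlap within either genotype, so their order was the same in every library.

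The 5 other receptors were low. In null, Cxcr2 (1.41 ± 0.732 CPM per kb) and S1pr2 (1.35 ± 0.252) overlapped. By mean, Cxcr5 (0.631 ± 0.354 CPM per kb), Ccr1 (0.617 ± 0.490) and Ackr3 (0.106 ± 0.151) came next in null, and their ranges ran into those above. In null library 2, Cxcr2 (0.823 CPM per kb) lay below Cxcr5 (0.832) and Ccr1 (1.16), and the highest Ccr1 value was level with the lowest of S1pr2 (1.16). Ccr1 overlapped Cxcr5 and Ackr3 as well. In WT, S1pr2 (1.23 ± 0.0489 CPM per kb) stood above Cxcr2 (0.742 ± 0.322), Cxcr5 (0.188 ± 0.205) overlapped Ccr1 (0.184 ± 0.0470), and Ackr3 (0.0213 ± 0.0301) was lowest.

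Cxcr4 made up 74.2% ± 1.69 of the summed CPM per kb of the 9 receptors in null (SD, n = 3) and 73.2% ± 2.98 in WT (SD, n = 2). S1pr4 accounted for 12.9% ± 1.64 in null and 15.4% ± 1.53 in WT, and S1pr1 for 7.41% ± 1.01 in null and 6.84% ± 0.551 in WT. The genotypes overlapped for Cxcr4 and S1pr1. For S1pr4 they overlapped as well, since null library 3 reached 14.5% and WT library 2 had 14.3%.

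**Figure D1:**
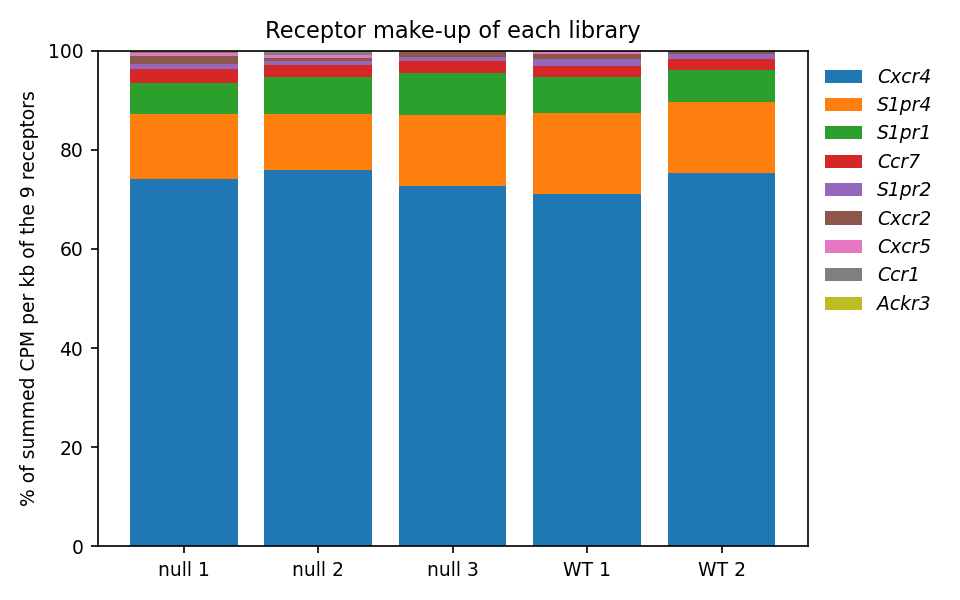
Stacked bars of each receptor's share (percent, vertical axis) of the summed CPM per kilobase of the 9 receptors, for the 3 Gabbr1 null and 2 WT libraries. Cxcr4 holds between 71.1% and 76.0% in every library, S1pr4 and S1pr1 most of the rest.

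No receptor passed the threshold between genotypes. Ackr3 fell below the filter on low counts, and of the 8 receptors tested, 0 had an edgeR adjusted p under 0.05, against 2.48% of the 13467 genes tested (2.15% higher and 0.334% lower). DESeq2 and limma-voom also called 0 of the 8, and 2.87% and 1.88% of all genes. No receptor was called with RLE factors, upper quartile factors, a robust fit or sex as a covariate, fits that called 2.46%, 2.49%, 2.82% and 2.37% of all genes, nor among the 6 tested with a stricter filter on low counts, which called 1.73%, nor at an adjusted p under 0.1, which 3.7% of all genes met. Leaving out null library 1, 2 or 3 called 0 of the 6, 6 and 7 receptors then tested and 2.26%, 2.69% and 2.51% of all genes, and leaving out WT library 1 or 2 called 0 of 8 and 0.985% and 0.227% of all genes. With no filter, 2 of these 8 passed, Cxcr4 and S1pr1, against 3.18% of 23770 genes. Ackr3 was also in that fit, but its result there was not extracted. At an unadjusted p under 0.05, 2 receptors were higher in null, Cxcr4 and S1pr1, and 0 were lower, where 7.99% of all genes were higher and 4.84% lower. All 8 log2 fold changes, null over WT, were positive, from 0.13 to 1.69 with a median of 0.60, whereas 49.2% of all genes were positive with a median of -0.0045. Cxcr5 and Ccr1 met the filter, a level of about 1.28 CPM in at least 2 libraries, only through null libraries, so their inclusion favours a positive sign. In bulk libraries, fewer cells of a type and less RNA per cell cannot be told apart.

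The chemokine receptor of marrow retention came closest among the chemokine receptors. Cxcr4 (ENSMUSG00000045382.6, chr1:128588199-128592293, mm10, minus strand) had 1459, 1490 and 1438 counts in null libraries 1, 2 and 3, against 934 and 1123 counts in WT libraries 1 and 2. Its TMM-scaled level was 194.4, 196.6 and 177.3 CPM in null and 115.0 and 159.9 CPM in WT. Every null library lay above both WT libraries, and the WT libraries differed more from each other than the null libraries did. The log2 fold change was 0.46 ± 0.14 (SE, 95% interval 0.16 to 0.77), a fold of 1.38, with a p in edgeR of 0.00573 before and 0.130 after adjustment over all genes. The value depended on WT library 1, the lowest: it was 0.23 without that library and 0.72 without WT library 2, with edgeR adjusted p of 0.311 and 0.0663.

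Among the S1P receptors the pattern was uneven. S1pr1 (ENSMUSG00000045092.8, chr3:115710433-115715072, minus strand), the receptor of egress, had 28.2, 32.5 and 34.5 CPM in null, against 19.7 and 23.1 CPM in WT. The groups did not overlap. Its log2 fold change was 0.57 ± 0.16 (SE, 95% interval 0.22 to 0.93), a fold of 1.49, with a p in edgeR of 0.00411 before and 0.106 after adjustment. S1pr4 (chr10:81497747-81500132) had 45.6, 38.3 and 46.6 CPM in null and 35.1 and 40.0 CPM in WT, which overlapped (log2 fold change 0.21 ± 0.14 SE, 95% interval -0.09 to 0.52, adjusted p with edgeR = 0.589). S1pr2 (chr9:20962361-20976781), the receptor that opposes migration, had 13.1, 10.0 and 9.25 CPM in null and 10.1 and 9.54 CPM in WT. Its values overlapped (log2 fold change 0.13 ± 0.23 SE, 95% interval -0.37 to 0.63, adjusted p with edgeR = 0.885), and the sign turned without null library 1 (-0.03).

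Ratios of counts within a library do not depend on scaling. For each S1pr2 count there were 2.16, 3.24 and 3.73 S1pr1 counts in null libraries 1, 2 and 3, and 1.95 and 2.42 in WT, so the genotypes overlapped. For each S1pr4 count there were 0.620, 0.848 and 0.741 S1pr1 counts in null, and 0.561 and 0.577 in WT, without overlap. For each S1pr1 count there were 6.88, 6.06 and 5.14 Cxcr4 counts in null, against 5.84 and 6.93 in WT, with no separation between genotypes. These pairs are a choice among many, and the share of other gene pairs without overlap was not computed.

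**Figure D2:**
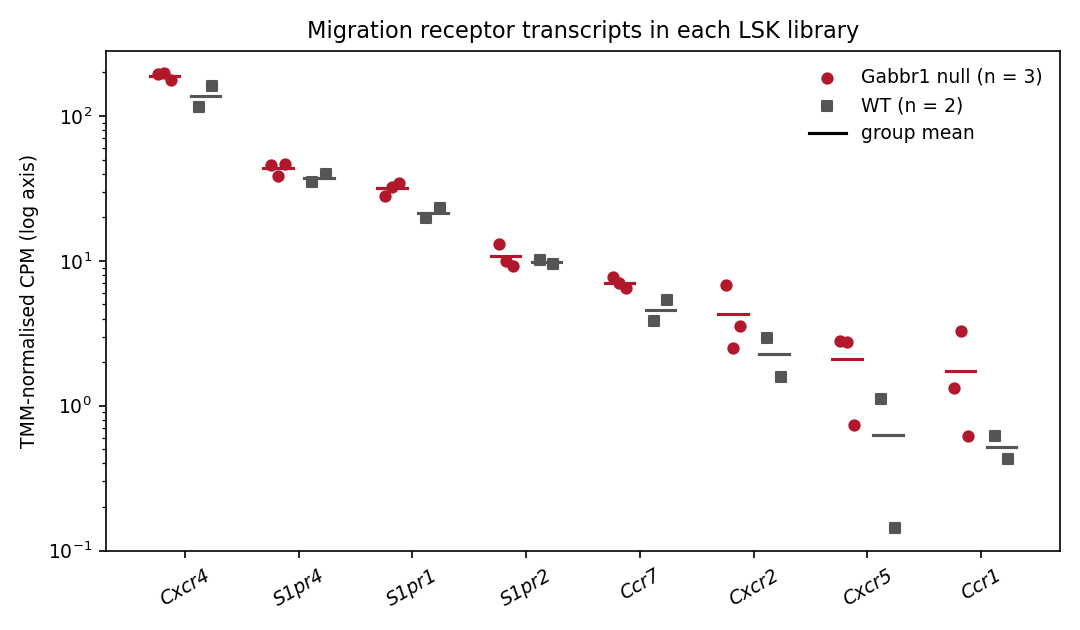
TMM-normalised CPM (log axis) of the 8 tested receptors in each library, with 3 Gabbr1 null points and 2 WT points per gene and a bar at each group mean. Cxcr4, S1pr1 and Ccr7 show every null point above both WT points. The null points of Cxcr5 and Ccr1 spread widely.

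The lymphocyte receptors were low in every library. Ccr7 (chr11:99144196-99155077), which binds Ccl19 and Ccl21, had 58, 53 and 53 counts in null and 31 and 38 in WT. Those counts correspond to 7.73, 6.99 and 6.53 CPM in null and 3.82 and 5.41 CPM in WT. The groups did not overlap, but the log2 fold change of 0.62 ± 0.29 (SE, 95% interval -0.01 to 1.26) did not pass (adjusted p with edgeR = 0.401). Cxcr5 (chr9:44511787-44561877), the receptor for Cxcl13, had 21, 21 and 6 counts in null and 9 and 1 in WT. Null library 3 lay below WT library 1, and the log2 fold change of 1.66 ± 0.78 (SE) did not pass (adjusted p with edgeR = 0.405). It was 3.72 without WT library 1 and 0.90 without WT library 2. An exon of Cxcr5 overlaps an exon of Bcl9l in the annotation, so reads there could belong to either gene.

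The myeloid receptors differed mostly between libraries. Cxcr2 (chr1:74153989-74161246), which senses Cxcl1 and Cxcl2, had 51, 19 and 29 counts in null and 24 and 11 in WT. Null library 1 was highest and null library 2 lay below WT library 1. The log2 fold change was 0.90 ± 0.49 (SE, adjusted p with edgeR = 0.490), and 0.42 without null library 1. Ccr1 (chr9:123962124-123968692), which in the mouse binds Ccl3, Ccl5 and Ccl9 among others, had 10, 25 and 5 counts in null and 5 and 3 in WT. Null library 3 (0.616 CPM) and WT library 1 (0.615 CPM) were level, and the log2 fold change of 1.69 ± 0.79 (SE) did not pass (adjusted p with edgeR = 0.398).

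Ackr3 (chr1:90203980-90216751), the scavenger of Cxcl12, had 7, 1 and 0 counts in null libraries 1, 2 and 3, and 0 and 1 in WT libraries 1 and 2. It was not tested in the main fit, and a difference was not detectable at this depth. A count of 0 allows up to 3 counts, which stand for 0.369 to 0.427 CPM across the libraries, for counting error only. Every null library lay above both WT libraries for Cxcr4, S1pr1 and Ccr7, with TMM scaling and with library totals, a pattern that 15.5% and 12.3% of all genes tested showed under these scalings. Ccr1 showed it with TMM only, and since Ccr1 met the filter through null libraries alone, it is not counted with the others.

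**Figure D3:**
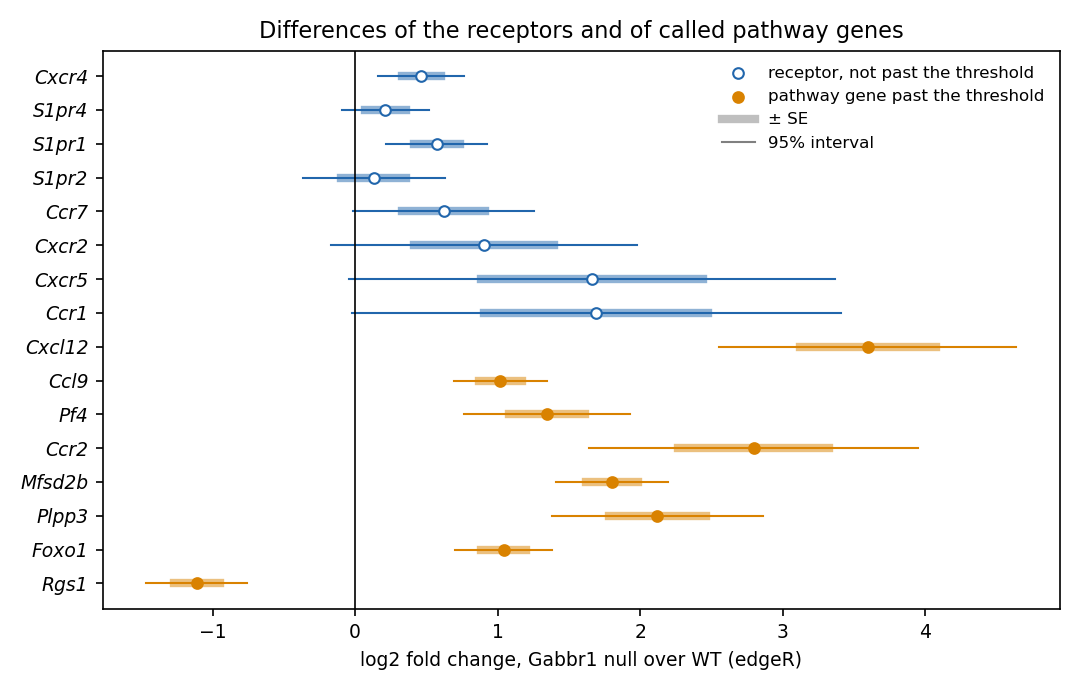
Log2 fold change, Gabbr1 null over WT, from edgeR (horizontal axis) for the 8 tested receptors (open, not past the threshold) and for the genes of the pathway lists that passed (filled), with thick bars for ± SE and thin bars for unadjusted 95% intervals. The intervals of Cxcr4 and S1pr1 lie above 0, those of the other 6 receptors include 0, and Rgs1 is the called gene below 0.

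Markers of other cell types moved with genotype and with single libraries. Of 16 B lineage markers, all of which had counts in every library, 12 rose (Pax5 and Ebf1 among them) and 1 fell, Igkc, an immunoglobulin light chain. Ighm, the most abundant, stood at 664 CPM in null and 671 CPM in WT. The summed level of the list was 1368 to 1938 CPM in null and 877 to 1280 CPM in WT. Of 13 endothelial and stromal markers, 12 were tested, 7 rose (Cdh5 and Kdr among them) and 0 fell. At an unadjusted p under 0.05 in edgeR, 9 were higher and 1 lower. The median log2 fold change of the 12 tested was 3.47. The 13 markers summed to 447 to 519 CPM in null and 325 to 374 CPM in WT, and Lepr and Kitl were at 0 in WT. The most abundant, Pecam1 (log2 fold change 0.30, adjusted p with edgeR = 0.211) and Egfl7 (-0.31, adjusted p with edgeR = 0.324), did not pass. Pecam1 stood at 174 CPM in null and 141 CPM in WT, and Egfl7 at 129 CPM in null and 159 CPM in WT. These 2 genes weigh most in the sums, unlike in the median. The 13 markers of mature neutrophils, of which 10 were tested and 0 passed in edgeR (9 higher at an unadjusted p under 0.05), summed to 2337, 627 and 144 CPM in null libraries 1, 2 and 3, and to 159 and 124 CPM in WT. Beside these sums, Cxcr2 was highest in null library 1 as well, whereas null library 2 had less Cxcr2 than null library 3. Monocyte and dendritic cell markers summed to 325, 172 and 146 CPM in null and 141 and 148 CPM in WT. Of 9 tested, 1 was past the threshold, F13a1. At 2.09 and 0.997 CPM in WT, F13a1 met the filter only with its null libraries. Ccr1 was highest in null library 2. T and NK cell markers summed to 112 to 124 CPM in null and 116 to 137 CPM in WT, with 1 of 7 tested past it, Trbc1, and Cd3e at 2, 0 and 0 counts in null and 0 in both WT libraries. The 7 late erythroid markers summed to 39.4, 9.24 and 4.69 CPM in null and 5.78 and 5.41 CPM in WT, with 3 tested and 0 past the threshold in edgeR (2 higher at an unadjusted p under 0.05). The part of these cell types in the receptor values was not tested. Cells bearing mature lineage markers are outside the Lin- gate.

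Of 12 genes of the gate and of stem cells, 3 fell (Hlf and Hoxa9 among them) and 0 rose. An unadjusted p under 0.05 in edgeR went to 8 lower and 0 higher genes. Log2 fold changes were negative for 11 of the 12, with a median of -0.36. For 9 of the 12 every null library lay below both WT libraries, a pattern that 13.7% of all genes tested showed. The sum of the 12 was 3503 to 3853 CPM in null and 4542 to 4722 CPM in WT. Null library 1 differed from the other 4 in having 22532 Xist counts and 0 counts over 4 Y-linked genes, against at most 21 and at least 1140. Without it, the log2 fold change was 0.45 for Cxcr4, 0.65 for S1pr1 and 0.56 for Ccr7, close to the values with it, and edgeR adjusted p was 0.235, 0.0773 and 0.643.

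**Figure D4:**
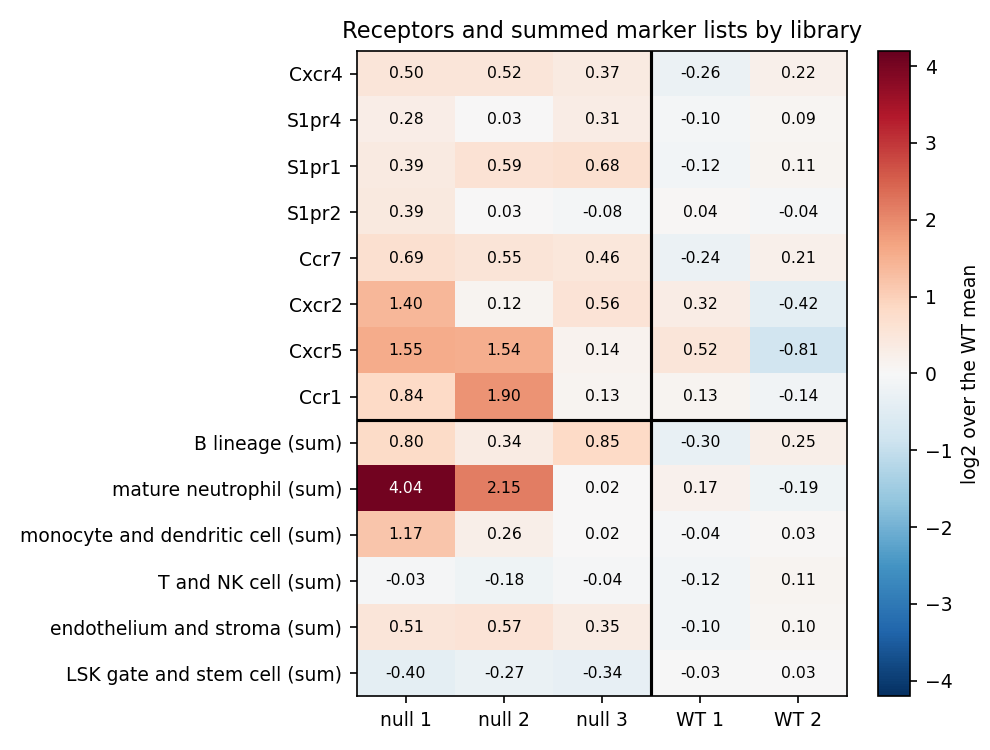
Heat map of each library (columns, 3 Gabbr1 null then 2 WT) for the 8 tested receptors (log2 of CPM + 0.5 over the WT mean + 0.5) and for the summed CPM of 6 marker lists (log2 over the WT mean). Null library 1 stands at 4.04 for the neutrophil markers and 1.40 for Cxcr2. S1pr1 is highest in null library 3 (0.68). The marker sums in that library are 0.85 (B lineage), 0.35 (endothelium and stroma), 0.02 (neutrophil), 0.02 (monocyte and dendritic cell), -0.04 (T and NK cell) and -0.34 (LSK gate and stem cell).

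The rest of the receptor family was sparser. Of 19 other chemokine and S1P receptors, 7 were tested, 1 rose and 0 fell. The gene that rose was Ccr2, the receptor by which monocytes leave the marrow towards Ccl2. It had 85, 55 and 32 counts in null and 6 and 10 in WT, and each null library lay above both WT libraries (log2 fold change 2.80 ± 0.53 SE, adjusted p with edgeR = 0.0147). That call was lost in limma-voom (adjusted p = 0.0993) and without either WT library (adjusted p with edgeR = 0.156 without WT library 1 and 0.220 without WT library 2). At 0.738 and 1.42 CPM in WT, Ccr2 met the filter only with its null libraries, so its inclusion favours a positive sign. The 2 highest of the list by CPM did not pass. Ccr9, the receptor for Ccl25, had 86, 77 and 117 counts in null and 183 and 115 in WT (log2 fold change -0.70 ± 0.21 SE, adjusted p with edgeR = 0.149), and its exons overlap those of Slc6a20a and other genes. Ccrl2, an atypical receptor, had a log2 fold change of -0.42 ± 0.31 (SE, adjusted p with edgeR = 0.645). Of 19 receptors for other chemoattractants, 11 were tested and 0 passed in edgeR, 1 being higher (Gpr183) and 1 lower (P2ry14) at an unadjusted p under 0.05. P2ry14, a receptor for UDP-glucose, stood at 30.2, 31.0 and 31.6 CPM in null and 49.0 and 38.9 CPM in WT (log2 fold change -0.51 ± 0.14 SE, adjusted p with edgeR = 0.105). Ptafr, the receptor for platelet-activating factor, had a log2 fold change of -0.31 ± 0.14 (SE, adjusted p with edgeR = 0.395).

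Among the ligands, the partner of Cxcr4 and Ackr3 rose. Of 32 chemokine genes, 11 were tested, 3 rose and 0 fell, while 9 had no count in any library. Cxcl12 (chr6:117168535-117181367) had 121, 168 and 108 counts in null and 3 and 18 in WT, and it is also a member of the stromal list above. At 0.369 and 2.56 CPM in WT libraries 1 and 2, it met the filter only with its null libraries. Its mean level reached 17.2 ± 4.52 CPM in null, against 1.47 ± 1.55 CPM in WT (SD, n = 3 and 2). That gave a log2 fold change of 3.60 ± 0.48 (SE, adjusted p with edgeR = 0.00174). The size rested on the WT libraries: it was 2.72 without WT library 1 and 5.48 without WT library 2, and it passed in both. Ccl9, a mouse ligand of Ccr1, had 67.4, 59.9 and 50.4 CPM in null and 31.1 and 27.2 CPM in WT (log2 fold change 1.02 ± 0.15 SE, adjusted p with edgeR = 0.00308). Pf4, the platelet factor that megakaryocytes make, had 15.2, 10.7 and 18.4 CPM in null and 6.15 and 5.41 CPM in WT (log2 fold change 1.35 ± 0.27 SE, adjusted p with edgeR = 0.0192). The null libraries were above the WT libraries for all 3 genes. The call of Ccl9 was lost without WT library 2 (adjusted p with edgeR = 0.134). Pf4 was lost in limma-voom (adjusted p = 0.0606), and with edgeR when null library 3 (adjusted p = 0.0586), WT library 1 (0.124) or WT library 2 (0.334) was left out.

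The ligands of the lymphocyte receptors were not read: Cxcl13, Ccl19 and Ccl21a had 0 counts in every library. Ccl25, next to Ccl9 in CPM, had a log2 fold change of -0.03 ± 0.16 (SE, adjusted p with edgeR = 0.967), and an exon of it overlaps Elavl1. Ccl3 and Ccl4 were lower at an unadjusted p under 0.05 and did not pass (adjusted p with edgeR = 0.261 and 0.294). For Ccl3 the libraries had 70, 20 and 20 counts in null and 69 and 105 in WT.

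On the S1P side, a transporter and a phosphatase rose. Of 22 genes of S1P synthesis, breakdown and transport, 20 were tested, 2 rose and 0 fell, with a median log2 fold change of 0.02. Mfsd2b (chr12:4862440-4874359), through which red cells and platelets export S1P, had 33.6, 30.0 and 34.2 CPM in null and 10.3 and 8.26 CPM in WT (log2 fold change 1.80 ± 0.18 SE, adjusted p with edgeR = 0.000335). Plpp3 (chr4:105157347-105232764), a phosphatase that removes extracellular lipid phosphates, S1P among them, had 10.9, 9.90 and 12.5 CPM in null and 1.60 and 3.56 CPM in WT. Its log2 fold change was 2.12 ± 0.34 (SE, adjusted p with edgeR = 0.00504), which was 1.62 without WT library 1, where the call was lost (adjusted p with edgeR = 0.0697), and 2.78 without WT library 2. Spns2, the exporter of S1P in endothelium, and Cers2, a ceramide synthase, were the highest of the list by CPM. Their log2 fold changes of -0.23 ± 0.13 and -0.05 ± 0.10 (SE) did not pass (adjusted p with edgeR = 0.486 and 0.897), and exons of Spns2 overlap Mybbp1a and those of Cers2 overlap Setdb1.

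Genes that damp the receptors or set S1pr1 at the surface moved in both directions. Of 19 listed, 17 were tested, 1 rose and 1 fell. Rgs1 (chr1:144242296-144249242), which speeds the switching off of inhibitory G proteins and so damps chemokine and S1P receptor signals, had 45.6, 37.6 and 51.5 CPM in null and 80.5 and 113.8 CPM in WT. It fell by 1.11 on the log2 scale (SE 0.16, adjusted p with edgeR = 0.00282), a call lost without WT library 2 (adjusted p with edgeR = 0.154). Foxo1 (chr3:52268336-52353221), a transcription factor that in mouse T cells acts upstream of Klf2, S1pr1 and Ccr7, had 127.6, 89.3 and 115.3 CPM in null and 59.0 and 48.4 CPM in WT. Its log2 fold change was 1.04 ± 0.16 (SE, adjusted p with edgeR = 0.00348), lost without WT library 1 or WT library 2 (adjusted p with edgeR = 0.0513 and 0.186), and an exon of it overlaps the predicted gene Gm20402. Klf2, a transcription factor that activates S1pr1 in T cells, and Cd69, which pulls S1pr1 from the surface, had log2 fold changes of -0.16 ± 0.21 and -0.38 ± 0.20 (SE) that did not pass (adjusted p with edgeR = 0.828 and 0.484). The kinase gene Grk2 and the arrestin gene Arrb1, which desensitise active receptors, were the highest of the list by CPM, with 0.14 ± 0.14 and -0.19 ± 0.13 (log2 fold change, SE, adjusted p with edgeR = 0.747 and 0.589).

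Downstream of the receptors, no gene passed. Of 32 signal transducers of migration, 31 were tested and 0 passed in edgeR, where an unadjusted p under 0.05 went to 1 higher and 2 lower genes, and with a median log2 fold change of 0.02. The actin regulator Coro1a and the GTPase Rac2, the highest of them by CPM, had log2 fold changes of 0.08 ± 0.13 and 0.02 ± 0.12 (SE, adjusted p with edgeR = 0.872 and 0.971), and an exon of Coro1a overlaps Bola2. Gnai2, the inhibitory G protein subunit of chemokine receptors, stood at 434.0, 422.8 and 453.9 CPM in null and 397.5 and 461.8 CPM in WT. Pik3r6, a regulatory subunit of PI3 kinase gamma, was the gene with an unadjusted p under 0.05 on the higher side (log2 fold change 1.03 ± 0.26 SE, adjusted p with edgeR = 0.0682), and was named after its value was seen.

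**Figure D5:**
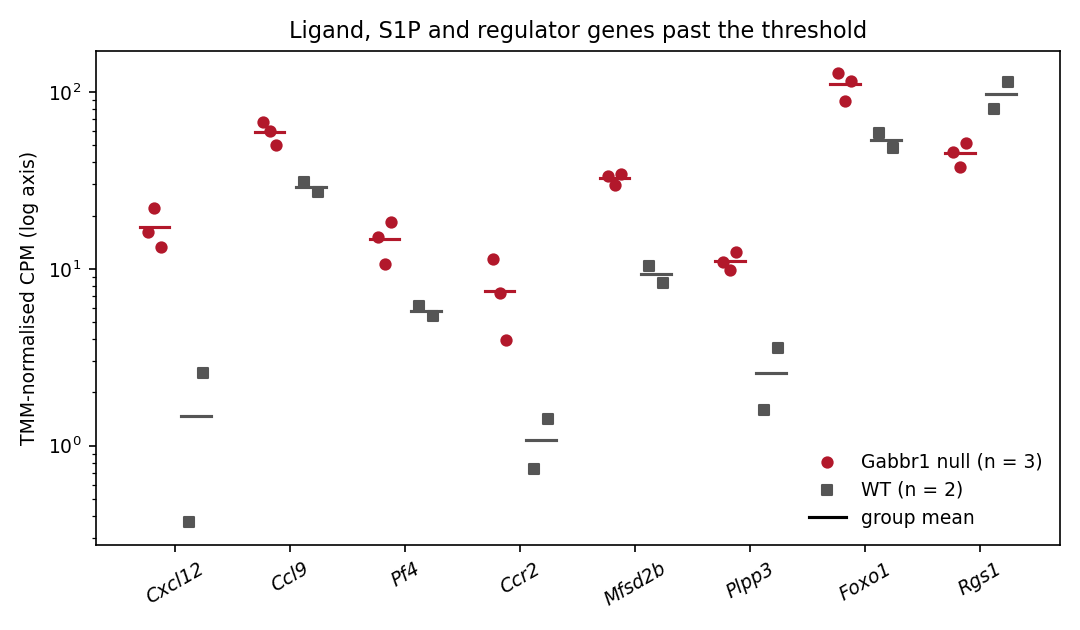
TMM-normalised CPM (log axis) in each library for the 8 genes of the pathway lists past the threshold, with 3 Gabbr1 null points, 2 WT points and a bar at each group mean. Rgs1 is lower in every null library than in both WT libraries, and the other 7 genes are higher.

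The genes whose pattern over the 5 libraries was most like that of a receptor were found by the root mean square difference of log2 CPM, centred on each gene's mean, over 5 libraries. The search covered genes with a mean of at least 5 CPM. Nearest to Cxcr4 were Kcnk6 (0.0379), Fbp1 (0.0583) and Sbk1 (0.0618). Nearest to S1pr1 were Dnah1 (0.0447), Faap24 (0.0645) and Tmem121 (0.0656), and nearest to S1pr4 were Tnfrsf13c (0.0179), Bcl2l1 (0.0219) and Ccnb2 (0.0253). Ccr7 lay closest to F8a (0.0359), Ttyh2 (0.0548) and Tubb2a (0.0619), and S1pr2 to Bloc1s2 (0.0436), Sp110 (0.0464) and Mylip (0.0497). The receptors with few counts had no near match: the closest were Dus2 (0.189), Nucb2 (0.193) and Iigp1 (0.196) for Cxcr2. For Ccr1 they were Lrp4 (0.296), F5 (0.333) and Plekhg1 (0.373), and for Cxcr5 Rab44 (0.336), Anxa3 (0.364) and Clec12a (0.366). These are the nearest of 10163 genes searched over 5 libraries.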

How the data were processed

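RNA of sorted LSK cells was sequenced in 5 libraries, 3 Gabbr1 null and 2 WT. The labels' protocols describe a low-input library kit with probe depletion and paired-end reads. Per the submitters' processing notes, STAR and featureCounts were used on mm10; the sources used here give no versions, annotation release or strand setting. The table the authors deposited holds raw counts for each gene. Totals were 6972753 to 8150774 counts per library, so 1 count was 0.123 to 0.142 CPM, and no replicate pair agreed within sampling noise (chi-square per degree of freedom 8.21 to 13.1).

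Identifiers were matched to GENCODE M21 (99.5%). Genes kept by filterByExpr (13467) were scaled with TMM and tested with edgeR 4.0.16 (R 4.3.3), by quasi-likelihood F test on genotype with 3 residual degrees of freedom; SE was derived from F, and genes passed at a Benjamini-Hochberg adjusted p below 0.05. DESeq2 1.42.0, limma-voom (limma 3.58.1), other scalings and filters, robust dispersions, a sex term and leaving out each library were alternatives. The code was tested on simulated counts. Some called genes of the pathway and marker lists were low in WT and met the filter only with null libraries, which favours a positive sign. Promoter windows came from RefSeq (GRCm38.p6). The receptors, the 6 pathway lists and the 7 marker lists were chosen with earlier results of these data known. Genes named are the receptors, the 2 most abundant and all called genes of each pathway list, and the 3 nearest patterns of each tested receptor, except where a sentence says otherwise. Marker genes given as examples, and pathway genes given for their role (Ccl3, Ccl4, Klf2, Cd69, Gnai2 and Gpr183), were picked after their values were seen.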

Additional observations from a re-analysis of the deposited data

How the results depend on the processing

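With no filter on low counts, Cxcr4 (log2 fold change 0.46, edgeR adjusted p = 0.0117) and S1pr1 (0.57, edgeR adjusted p = 0.0475) passed, in a fit of 23770 genes in which 602 genes were higher and 155 lower. The cause was not tested. In the other alternatives, none of the 8 receptors passed where it was tested. S1pr2 changed sign with sex as a covariate (-0.028) and without null library 1 (-0.026). The sex term, set by Xist counts, sets only that library apart, so these fits are not separate checks. Over fits that left out 1 library, log2 fold changes ranged from 0.23 to 0.72 for Cxcr4, 0.45 to 0.69 for S1pr1, 0.11 to 0.31 for S1pr4, -0.026 to 0.23 for S1pr2, 0.38 to 0.89 for Ccr7, 0.42 to 1.43 for Cxcr2, 0.90 to 3.72 for Cxcr5 and 1.47 to 1.97 for Ccr1. Cxcr5 and Ccr1 were not tested with 1 CPM required in every library or without null library 1 or 2, nor Ccr1 without null library 3. A lone WT library is taken to vary as the null libraries do. Over all genes, 289 passed as higher and 45 as lower. A filter of 1 CPM in every library gave 173 higher, an adjusted p under 0.1 gave 81 lower, and leaving out each library gave 32 to 316 higher and 0 to 51 lower, the 0 without WT library 2, where 339 were lower at an unadjusted p under 0.05. Of the called pathway genes, Mfsd2b passed in every fit and Cxcl12 in every fit that tested it, which leaves out the stricter filter. CPM from library totals moved no receptor's mean by as much as its SD. No paired analysis was possible because the labels give no replicate numbers. Depth limits Ackr3, Cxcr5 and Ccr1, with at most 25 counts in any library.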

Other observations

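Several receptors too low to be tested had counts in 1 genotype only. Cxcr6, the receptor for Cxcl16, had 8, 7 and 12 counts in null and 0 in both WT libraries. Its null level was 5.88 times the level of 3 counts over the WT group. Ccr3, the receptor of eosinophils for Ccl11, had 0 counts in all 3 null libraries and 7 and 4 in WT. Its WT level was 5.61 times the level of 3 counts over the null group. Ccr8 had 3, 0 and 4 counts in null and 0 in both WT libraries, a ratio of 1.52 on the same floor. These ratios leave out the counting error of the group with counts and the spread among libraries, so they are not lower bounds. Ccr4, Ccr6, Ackr1 and S1pr5 had 1 to 3 counts in all over the null libraries and 0 in WT. Ackr2, a scavenger of inflammatory chemokines, had 4, 3 and 7 counts in null and 0 and 1 in WT. These were picked after their values were seen and carry no test. The share of all low genes with counts in 1 genotype only was not computed. With 3 null libraries against 2 WT, counts in null only are easier to reach than counts in WT only. Gpr183, which draws B cells and other leukocytes towards oxysterols, had 22, 16 and 2 counts in null and 2 and 0 in WT. Null library 3 was level with WT library 1 in counts (log2 fold change 3.58 ± 1.18 SE, edgeR adjusted p = 0.189). At 0.246 and 0 CPM in WT, Gpr183 met the filter through null libraries alone.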
